A study of Mus musculus with 6 samples.

Results

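Il1rl1, Il1r2, Il18r1 and Areg are 4 of the 14597 genes in a table of unique molecular identifier (UMI) counts from 12818 single T cells of mouse tumors, and they were chosen by name, as 3 receptors of the IL-1 family and an epidermal growth factor. The cells had been sorted as TCRβ+ from tumors of the melanoma line B16-F10, which grew under the skin of Foxp3-EGFP-DTR mice, in which the Foxp3 locus drives a green fluorescent protein and the human diphtheria toxin receptor, so that toxin kills Foxp3+ cells. All mice carried this allele and a tumor. The labels describe 3 samples from mice given PBS and 3 from mice given diphtheria toxin (DTx). The cells fall into 6 libraries that are known only by a number from 1 to 6 in the table, and no label ties a number to a sample. The 6 libraries were therefore treated as 1 pool, PBS and DTx were not compared, and no p-value is given. The question asked of the 4 genes was in which T cells of these tumors they were found, and with which other genes.

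All 3 receptors belong to the IL-1 receptor family. Il1rl1 encodes ST2, the receptor for the alarmin IL-33, which dying and damaged cells release. Il18r1 encodes the ligand-binding chain of the IL-18 receptor, which works with the accessory chain encoded by Il18rap and, together with IL-12, drives interferon-γ production. Il1r2 encodes a decoy that binds IL-1 but lacks the signaling domain through which the others recruit MyD88. Areg encodes amphiregulin, a ligand of the epidermal growth factor receptor that acts in tissue repair. ST2 and amphiregulin are known from regulatory T (Treg) cells of non-lymphoid tissues and from type 2 helper cells, which make IL-4, IL-5 and IL-13, whereas the IL-18 receptor is known from type 1 cells and effector CD8+ cells.

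The 3 receptor genes lie in 1 cluster on the + strand of mouse chromosome 1. In the GENCODE M21 annotation of GRCm38, Il1r2 (ENSMUSG00000026073.13) spans chr1:40074079-40125231, Il1rl1 (ENSMUSG00000026069.15) chr1:40429570-40465415 and Il18r1 (ENSMUSG00000026070.15) chr1:40465552-40500854, so that 136 bases separate the end of Il1rl1 from the start of Il18r1. Areg (ENSMUSG00000029378.5) lies on chromosome 5 at chr5:91139599-91148432, + strand. The 250 bases upstream of the start site are shown for Il1rl1 and Areg, since these windows hold motif matches and lie outside annotated UTRs. Capitals mark matches to the GATA motif GATAA, bound by factors such as GATA3, in Il1rl1, and to the cAMP response element TGACGTCA in Areg. The sequences are RefSeq promoter windows of GRCm38.p6, + strand, at chr1:40429320-40429569 for Il1rl1 and chr5:91139349-91139598 for Areg.
Il1rl1: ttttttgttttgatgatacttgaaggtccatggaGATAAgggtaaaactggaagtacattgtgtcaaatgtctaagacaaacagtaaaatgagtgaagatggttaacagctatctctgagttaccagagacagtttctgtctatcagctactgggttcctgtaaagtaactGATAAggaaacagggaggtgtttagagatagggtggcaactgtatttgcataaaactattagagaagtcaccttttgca
Areg: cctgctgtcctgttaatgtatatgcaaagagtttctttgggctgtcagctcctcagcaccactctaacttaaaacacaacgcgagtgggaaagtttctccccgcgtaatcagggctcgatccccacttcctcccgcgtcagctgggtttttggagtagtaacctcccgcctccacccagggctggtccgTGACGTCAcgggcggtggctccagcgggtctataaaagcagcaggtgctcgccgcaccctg

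The Il1rl1 window held 2 GATAA matches, with 211 and 74 bases between the end of the match and the start site. The Areg window held 1 TGACGTCA match, with 53 bases between its end and the start site. Motifs were searched on both strands, for GATAA, for the AP-1 motif TGANTCA, for TGACGTCA and for the STAT motif TTCNNNGAA, and none of the marked matches overlapped a match to another motif. The windows of the other start sites overlap annotated UTRs and are not shown. Of these, the Il1r2 window held 1 GATA and 1 STAT match and a downstream Il1rl1 window 1 GATA match, and the 3 Il18r1 windows held no GATA match and 2 STAT matches in 1 of them. Of 32851 promoter windows of this length, 22.6% held the GATA, 6.75% the AP-1, 1.55% the cAMP and 7.02% the STAT motif. The matches describe the letters of these windows, and binding was not measured.

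Cells were gated on UMI presence. CD4+ conventional T cells (CD4+ Tconv) had a Cd4 UMI and none of Cd8a, Cd8b1 or Foxp3 (1205 cells), CD8+ cells had a Cd8a or Cd8b1 UMI and none of Cd4 or Foxp3 (4497 cells), and Foxp3+ cells had a Foxp3 UMI and none of the Cd8 genes (97 cells). A further 6838 cells (53.3%) held no UMI of these genes, 163 held both Cd4 and Cd8 and 18 both Foxp3 and Cd8. Foxp3 was sparse, with a mean of 1.24 UMIs per positive cell, and 80.9% of its positive cells held 1 UMI. Treg cells without a Foxp3 UMI can therefore lie in the CD4+ Tconv gate or among the ungated cells. Comparisons of Foxp3+ with CD4+ Tconv cells below are of cells with and without a detected Foxp3 UMI. The libraries held 1768 to 2640 cells and 1916305 to 5127776 UMIs each, and their median depth ran from 610 UMIs per cell in library 3 to 2499.5 in library 4. Foxp3+ cells came from libraries 1, 2 and 3 (49, 30 and 17 cells) and 1 from library 6, whereas of 195 cells with an Il13 UMI, 99, 49 and 40 came from libraries 4, 5 and 6, 3 from library 1 and 4 from library 3. Library, depth and the presence of these cells thus moved together. Gate shares are therefore given by library, UMI ratios and co-detection are matched within libraries, and splits of a gate by cytokine or Ccr8 are pooled, with counts of single libraries beside them. A T cell marker was found in 95.4% of all cells. The libraries shared 76 barcodes (152 cells), and leaving these cells out, an alternative chosen after seeing the data, moved none of the ratios of the 4 genes below, between gates or with Foxp3, Il13 and Ifng, outside its interval. No doublet caller was run, and the cells with both Cd4 and Cd8 were kept out of the gates. Shares carry exact Clopper-Pearson 95% intervals, and all intervals cover counting error only.

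An Il1rl1 UMI was found in 496 cells (3.87%), an Il1r2 UMI in 310 (2.42%), an Il18r1 UMI in 1840 (14.4%) and an Areg UMI in 588 (4.59%). These counts rest on few molecules per cell. For Il1rl1, 72.4% of the positive cells held a single UMI and the highest cell held 17. For Il18r1 the mean was 1.34 UMIs per positive cell and the highest cell held 7. Areg was distributed differently, with a mean of 4.59 UMIs per positive cell, 66 cells with at least 10 and 1 cell with 81, so that its 10 highest cells held 19.0% of all Areg UMIs. Il1r2 was also uneven, with 19.9% of its UMIs in its 10 highest cells, against 11.6% for Il1rl1 and 2.14% for Il18r1.

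Il1rl1 was found in 8.71% of CD4+ Tconv cells (105 cells, 95% interval 7.18 to 10.5), 18.6% of Foxp3+ cells (18 cells, 11.4 to 27.7) and 1.89% of CD8+ cells (85 cells, 1.51 to 2.33). The median depth of these gates was alike, at 1622, 1532 and 1708 UMIs. Among 1811 cells that carried at least 3 of 5 markers of naive T cells (Ccr7, Lef1, Tcf7, Klf2, S1pr1; median depth 1193), which should lack ST2, the share was 1.60% (1.07 to 2.29). This background differed by library, at 1.04, 0.204, 2.22, 7.38, 6.10 and 7.89% in libraries 1 to 6. Naive-marker cells of the CD4+ Tconv gate alone gave a wider range, with Il1rl1 in 8 of 137 (5.84%, 2.55 to 11.2), Il1r2 in 5 (3.65%, 1.20 to 8.31), Il18r1 in 25 (18.2%, 12.2 to 25.7) and Areg in 8 (5.84%, 2.55 to 11.2), so against them these shares of the whole CD4+ Tconv gate were not clearly separated. In libraries 1 to 6, Il1rl1 was found in 1.38, 0.662, 3.25, 18.0, 10.6 and 6.38% of CD4+ Tconv cells and in 1.29, 0.113, 1.24, 3.26, 3.11 and 1.91% of CD8+ cells. From all UMIs, the CD4+ Tconv share was highest in library 4 and lowest in library 2, and above the naive-marker share in every library but 6, whereas the CD8+ share was below it in libraries 2 to 6. When every cell was thinned to 1000 UMIs and shallower cells were left out, the CD4+ Tconv shares were 0, 1.27, 2.50, 7.82, 6.14 and 6.06% (the 0 rests on 88 cells and allows up to 3.41%). The thinned naive-marker shares were 0.913, 0.155, 2.38, 3.40, 3.70 and 3.23%. At equal depth the CD4+ Tconv share thus lay below the naive-marker share in library 1 and above it in the others. In library 2 this rested on 1 of 79 against 1 of 647 cells, in library 3 on 1 of 40 against 1 of 42. In library 6 it rested on 8 of 132 against 1 of 31 cells. Among Foxp3+ cells, Il1rl1 was found in 9 of 49 (18.4%), 3 of 30 (10.0%) and 6 of 17 (35.3%) in libraries 1, 2 and 3, each above the CD4+ Tconv share of the same library.

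Il1r2 was found in 7.88% of CD4+ Tconv cells (95 cells, 6.43 to 9.55), 11.3% of Foxp3+ cells (11 cells, 5.80 to 19.4) and 1.0% of CD8+ cells (45 cells, 0.731 to 1.34), beside 1.1% of naive-marker cells (0.676 to 1.70). In libraries 1 to 6 the CD4+ Tconv shares were 0.690, 1.32, 2.44, 11.8, 11.9 and 9.57% and the CD8+ shares 0.322, 0.226, 0.249, 0.484, 2.19 and 1.91%. Thinned to 1000 UMIs, the CD4+ Tconv shares were 1.14, 1.27, 5.0, 4.08, 5.05 and 9.09%. Their range was narrower at equal depth, but the values of libraries 1, 2 and 3 rested on 1 of 88, 1 of 79 and 2 of 40 cells. Il1r2 was found in 7, 1 and 3 of the Foxp3+ cells of libraries 1, 2 and 3 (14.3, 3.33 and 17.6%).

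Il18r1 did not separate the gates. It was found in 20.8% of CD4+ Tconv cells (251 cells, 18.6 to 23.2), 19.0% of CD8+ cells (854 cells, 17.9 to 20.2) and 17.5% of Foxp3+ cells (17 cells, 10.6 to 26.6), beside 8.95% of naive-marker cells pooled (7.67 to 10.4). In libraries 1 to 6 the CD4+ Tconv shares were 13.8, 3.31, 6.50, 33.4, 27.6 and 18.6% and the CD8+ shares 9.16, 3.39, 4.48, 34.7, 33.7 and 19.0%. Both gates were high and low in the same libraries. Naive-marker cells held Il18r1 in 10.2, 1.94, 3.89, 37.6, 36.6 and 28.9%, so that before thinning neither gate stood above them in libraries 4, 5 and 6. Of the 17 Foxp3+ cells with Il18r1, 14 came from library 1, where it was found in 28.6% of them, against 6.67% in library 2 and 5.88% in library 3. Thinning gave 12.4% of CD4+ Tconv, 9.93% of CD8+ and 9.21% of Foxp3+ cells. Thinned naive-marker cells of the CD4+ Tconv gate held Il18r1 in 7.0% (7 of 100, 2.86 to 13.9). Those of the CD8+ gate held it in 4.94% (27 of 547, 3.28 to 7.10). These thinned values are pooled, and 647 of 1167 thinned naive-marker cells came from library 2, where thinned Il18r1 was lowest (1.73% of all cells).

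Areg was found in 10.5% of CD4+ Tconv cells (126 cells, 8.79 to 12.3), 26.8% of Foxp3+ cells (26 cells, 18.3 to 36.8) and 1.49% of CD8+ cells (67 cells, 1.16 to 1.89). Naive-marker cells held it in 2.26% (1.63 to 3.06), so the pooled CD8+ share was no higher than this background. In libraries 1 to 6 the CD4+ Tconv shares were 6.90, 2.65, 8.13, 14.8, 13.7 and 9.04% and the CD8+ shares 2.25, 0.226, 1.74, 2.18, 1.5 and 1.46%. The CD4+ Tconv share was above the CD8+ share in every library. Among Foxp3+ cells it was found in 15 of 49, 6 of 30 and 5 of 17 in libraries 1, 2 and 3, in each above the CD4+ Tconv cells of that library. Thinned to 1000 UMIs, Areg remained in 18.4% of Foxp3+, 8.46% of CD4+ Tconv and 1.15% of CD8+ cells.

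**Figure D1:**
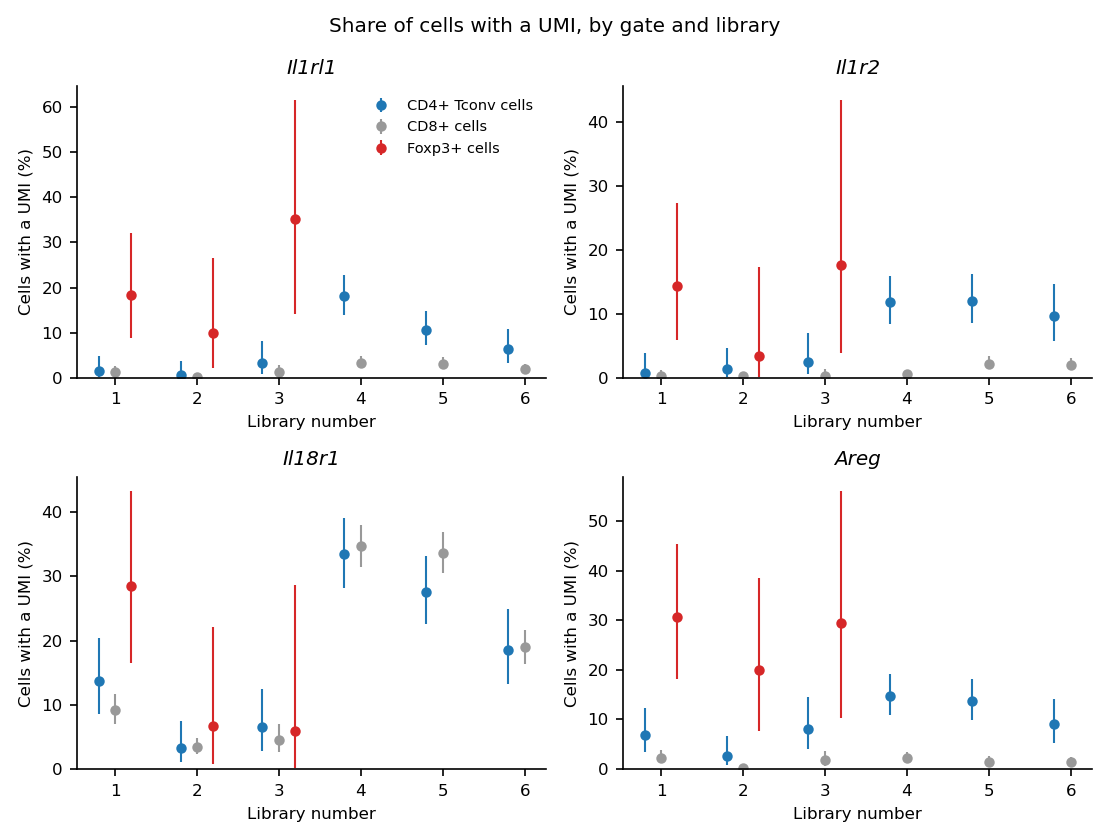
Share of cells with a UMI of each gene (y axis, percent) in libraries 1 to 6 (x axis), for CD4+ Tconv, CD8+ and Foxp3+ cells, with exact 95% intervals. Foxp3+ cells appear for libraries 1, 2 and 3, where they number 17 or more. Of the 3 gates CD8+ cells have the lowest share of Il1rl1, Il1r2 and Areg in every library, narrowly so in library 1 for Il1rl1 (1.29 against 1.38% of CD4+ Tconv cells), whereas the CD4+ Tconv and CD8+ points of Il18r1 run together.

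UMI ratios separated CD4+ Tconv from CD8+ cells for the same 3 genes. For each gene, the ratio set its UMIs in CD4+ Tconv cells against those that its share of the UMIs of CD8+ cells in the same library would give, with an exact conditional 95% interval. Il1r2 was 12.5-fold higher in CD4+ Tconv cells (9.59 to 16.4; 239 against 19.1 expected UMIs), and higher in 6 of 6 libraries. Areg was 9.13-fold higher (7.92 to 10.5; 695 against 76.1), and higher in 6 of 6 libraries. Il1rl1 was 5.43-fold higher (4.28 to 6.92; 185 against 34.1), and higher in 5 of 6 libraries, with library 1 at 0.995. Il18r1 stood at 0.946 (0.836 to 1.07), with ratios from 0.767 to 2.03 in single libraries. Thus 3 of the 4 genes were at least 2-fold higher in CD4+ Tconv cells and 0 of 4 at least 2-fold lower, against 4.46% and 3.89% of 10384 genes with at least 20 UMIs. In that order, from the highest ratio, Il1r2 ranked 16, Areg 19, Il1rl1 59 and Il18r1 6729. The size for Il1r2 rested on 2 libraries. Its ratio was 46.5 in library 4, and fell to 7.24 without library 4 but rose to 20.4 without library 5. For Areg the ratio was 4.98 when cells with other gating markers were kept in their gates.

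The same ratio was taken between Foxp3+ and CD4+ Tconv cells, over libraries 1, 2 and 3 and the single cell of library 6. Il1rl1 stood 12.3-fold higher in Foxp3+ cells (6.93 to 22.2; 32 against 2.60 expected UMIs), with ratios of 16.6, 5.03 and 13.8 in libraries 1, 2 and 3, and ranked 2 of 5196 genes. Il1r2 was 4.35-fold higher (2.26 to 7.92; 15 against 3.45), with 8.11, 1.68 and 2.36 in the 3 libraries, and ranked 15. Without library 1 the Il1r2 ratio was 1.91 (0.499 to 5.25), an interval that includes 1. Thus 2 of 4 genes were at least 2-fold higher in Foxp3+ cells and 0 of 4 lower, against 6.35% and 8.1% of all genes tested. Il18r1 stood at 1.55 (0.965 to 2.41) and Areg at 1.26 (0.930 to 1.69), and both intervals include 1. Areg did not behave alike across libraries, with 0.719, 8.06 and 2.34, and its ratio was 2.99 without library 1 and 0.845 after thinning. When each cell was counted once in place of its UMIs, an alternative chosen after seeing the data, Areg was 2.82-fold higher in Foxp3+ cells. Amphiregulin mRNA was therefore found in a larger share of Foxp3+ than of CD4+ Tconv cells, while the interval of its UMI ratio included 1. In library 1, 10 CD4+ Tconv cells held 80 Areg UMIs and 15 Foxp3+ cells held 26.

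**Figure D2:**
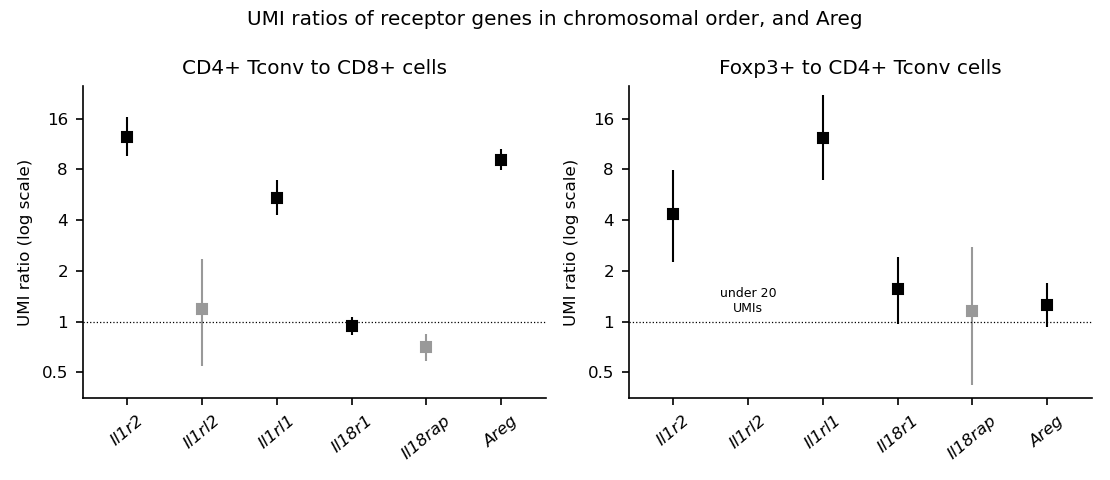
UMI ratio of each gene (log axis) for CD4+ Tconv over CD8+ cells and for Foxp3+ over CD4+ Tconv cells, pooled over libraries with 95% intervals, with Il1rl2 and Il18rap, neighbors of the receptors, in gray (Il1rl2 had under 20 UMIs in the second comparison). The intervals of Il1rl1 (5.43 and 12.3) and Il1r2 (12.5 and 4.35) lie above 1 in both comparisons, that of Areg in the first (9.13), and those of Il18r1 include 1 in both (0.946 and 1.55).

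The neighbors Il1rl2 and Il18rap on chromosome 1 did not share the CD4+ Tconv excess of Il1r2 and Il1rl1. Il1rl2, the IL-36 receptor, stood at 1.18 between CD4+ Tconv and CD8+ cells (0.54 to 2.36), and Il18rap at 0.70 (0.58 to 0.84), with Il18rap in 10.7% of CD4+ Tconv and 12.9% of CD8+ cells. Il1r1, the signaling receptor for IL-1 that Il1r2 competes with, had 33 UMIs in all and too few in these gates to be among the genes tested, with a ratio of 6.89 and a wide interval (1.34 to 44.4). Of the 7 family members tested, the 2 at least 2-fold higher in CD4+ Tconv cells were Il1r2 and Il1rl1, already counted above. None were 2-fold lower, and the shares of all genes were 4.46% higher and 3.89% lower. Il1rap, the chain that ST2 needs to signal, was found in 58 cells in all, 0.58% of CD4+ Tconv and 0.56% of CD8+ cells. Of 13 tested genes that transmit the signal (such as Myd88, Irak1 and Traf6), 0 were 2-fold higher or lower in CD4+ Tconv cells. The receptors for the other alarmins stood nearer to 1, with Il7r at 1.54, Crlf2, a chain of the TSLP receptor, at 1.43 and Il17ra, a chain of the IL-25 receptor, at 0.96. In Foxp3+ cells, 3 of 5 tested family members (Il1r2, Il1rl1 and the inhibitory receptor Sigirr) were at least 2-fold higher and 0 lower, beside 6.35% and 8.1% of all genes. Of these, Il1r2 and Il1rl1 were already counted above. Sigirr rested on 11 UMIs, with an interval that includes 1 (2.25-fold, 0.975 to 4.93).

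Among the epidermal growth factor family, Hbegf shared with Areg the highest share in Foxp3+ cells. It was found in 0.66% of CD4+ Tconv, 0.31% of CD8+ and 10.3% of Foxp3+ cells (8, 14 and 10 cells). Its CD4+ Tconv to CD8+ UMI ratio was 2.67 (1.03 to 6.51), from 9 UMIs in CD4+ Tconv cells, and higher in 4 of 6 libraries. Between Foxp3+ and CD4+ Tconv cells it had under 20 UMIs and was not among the genes tested. Tgfa, Btc and Egf were found in 15, 3 and 8 cells in all. Adam17, the protease that sheds amphiregulin, was found in 4.32% of CD4+ Tconv, 4.71% of CD8+ and 4.12% of Foxp3+ cells. Of the ligands of the receptors, Il18 was found in 15 cells, and Il33, Il1a and Il1b were not analysed here.

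Co-detection was then counted, as the cells with a UMI of both genes over those expected from the shares within the same library and quartile of depth, with exact Poisson intervals on the observed number. Foxp3 was found in 115 cells, of which 20 held Il1rl1 (17.4%), 12 Il1r2 (10.4%), 23 Il18r1 and 33 Areg (28.7%). Il1rl1 and Foxp3 shared 20 cells against 3.63 expected (5.51-fold, 3.37 to 8.52). Il1r2 shared 12 against 2.18 (5.50-fold, 2.84 to 9.60). Areg shared 33 against 7.15 (4.61-fold, 3.18 to 6.48). These 3 genes were thus found with Foxp3 more often than matched, as were 15.9% of 11182 genes at this threshold of 2-fold. Il18r1 shared 23 cells against 13.9 (1.66-fold, 1.05 to 2.48), of which 20 were in library 1, and without library 1 the ratio was 0.865. The expected numbers depend on the cells compared. Within CD4+ Tconv and Foxp3+ cells alone, the ratios with Foxp3 were 2.99 for Il1rl1 (1.77 to 4.73), 1.97 for Il1r2 (0.982 to 3.52), 1.22 for Il18r1 (0.709 to 1.95) and 1.85 for Areg (1.21 to 2.71), and with matching by library alone they were 9.38, 11.4, 2.67 and 8.04.

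Cells with Il13, a type 2 cytokine, often held Areg, Il1r2 and Il1rl1. Areg was found in 94 of 195 Il13 cells (48.2%) against 17.0 expected (5.51-fold, 4.46 to 6.75). Il1r2 was found in 55 (28.2%) against 13.3 (4.13-fold, 3.11 to 5.37) and Il1rl1 in 57 (29.2%) against 17.6 (3.23-fold, 2.45 to 4.19). Each of the 3 was above expectation in 3 of the 3 libraries with an expected number of at least 1, and Areg was found in 47 of 99, 23 of 49 and 22 of 40 Il13 cells of libraries 4, 5 and 6. At least 2-fold more than matched was reached by 6.82% of all genes. Il18r1 went the other way, in 31 Il13 cells (15.9%) against 61.4 expected (0.504-fold, 0.343 to 0.716), below expectation in 3 of 3 libraries. Of the Il13 cells 132 (67.7%, 60.6 to 74.2) held at least 1 of Il1rl1, Il1r2 and Areg, beside 20.8% of CD4+ Tconv, 40.2% of Foxp3+, 4.05% of CD8+ and 8.98% of all cells. These shares were matched on neither library nor depth. The Il13 cells came mostly from libraries 4, 5 and 6. Their median depth was 3556 UMIs, against 1622 in CD4+ Tconv cells and 1250.5 in all cells. Restricted to CD4+ Tconv and Foxp3+ cells the ratios with Il13 were 2.50 for Areg (1.72 to 3.51), 2.08 for Il1r2 (1.38 to 3.0), 1.72 for Il1rl1 (1.07 to 2.64) and 0.420 for Il18r1 (0.192 to 0.797). No Foxp3+ cell held Il13 (0 of 97), but the Foxp3+ and the Il13 cells came mostly from different libraries and none was expected, so their overlap could not be assessed.

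Ifng, the type 1 cytokine found in 3010 cells, lay for each gene on the other side of 1 from Il13 over all cells. Il18r1 shared 810 cells with Ifng against 699 expected (1.16-fold, 1.08 to 1.24), above expectation in 5 of 6 libraries. Areg shared 108 against 203 (0.531-fold, 0.435 to 0.641), Il1rl1 122 against 188 (0.648-fold, 0.538 to 0.774) and Il1r2 95 against 130 (0.731-fold, 0.592 to 0.894). None of the 4 reached 2-fold fewer cells, which 0.841% of all genes did. Il1rl1 and Il1r2 were below expectation in 5 of 5 libraries and Areg in 5 of 6. For Areg the libraries differed in size, with 25 cells against 26.0 in library 1 and 18 against 14.9 in library 3, but 31 against 74.8, 21 against 51.5 and 13 against 35.3 in libraries 4, 5 and 6. The Il1r2 ratio without library 4 was 0.899 (0.714 to 1.12). Most Ifng cells are not CD4+, so the same count was made among CD4+ Tconv cells, where Il18r1 shared 114 cells against 91.0 (1.25-fold, 1.03 to 1.5) and Areg 24 against 45.7 (0.525-fold). Il1r2 shared 23 CD4+ Tconv cells with Ifng against 36.4 (0.632-fold, 0.400 to 0.948). Il1rl1 shared 29 against 39.5 (0.734-fold, 0.492 to 1.05), with an interval that includes 1. In CD8+ cells no gene stood apart from expectation with Ifng, at 1.05 for Il18r1 (438 cells against 416, 0.956 to 1.16), 0.821 for Il1rl1 (0.575 to 1.14), 1.24 for Il1r2 (0.831 to 1.78) and 1.04 for Areg (0.712 to 1.47).

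**Figure D3:**
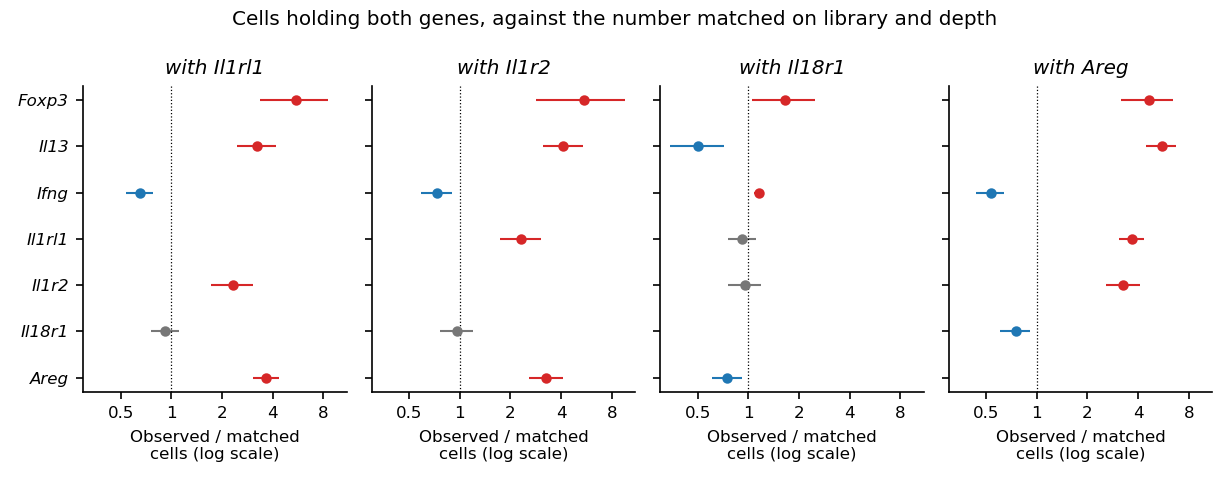
Cells with a UMI of both genes over the number expected within library and depth quartile (log axis, 95% intervals) for each of the 4 genes with Foxp3, Il13 and Ifng, and with each other, over all cells. Red marks intervals above 1, blue below 1 and gray those that include 1. Il1rl1, Il1r2 and Areg lie above 1 with Foxp3 and Il13 and below 1 with Ifng, and Il18r1 lies below 1 with Il13 (0.504) and above 1 with Ifng (1.16).

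The 4 genes split in the same way when they were set against each other. Il1rl1 and Areg shared 135 cells against 36.9 expected (3.66-fold, 3.07 to 4.33), Il1r2 and Areg 76 against 23.2 (3.27-fold, 2.58 to 4.10), and Il1rl1 and Il1r2 51 against 22.0 (2.31-fold, 1.72 to 3.04). Each pair was above expectation in every library with an expected number of at least 1 (5 of 5, 5 of 5 and 4 of 4). For Il1rl1 and Il1r2 the size differed, with 28 cells against 9.26 in library 4 and 5 against 1.01 in library 3. In library 5 the pair had 10 against 7.76, and in library 6 it stood at expectation, with 3 against 2.98. Il18r1 shared 110 cells with Il1rl1 against 120 (0.917-fold), 80 with Il1r2 against 83.7 (0.956-fold) and 97 with Areg against 129 (0.750-fold, 0.608 to 0.915). Although Il1rl1 and Il18r1 are adjacent on the chromosome, their UMIs were thus not found together more often than matched. All of Il1rl1, Il1r2 and Areg were found in 19 cells, 11 of which held Il13. Within CD4+ Tconv cells the pairs shrank to 30 against 16.4 for Il1rl1 and Areg (1.83-fold), 33 against 16.7 for Il1r2 and Areg (1.97-fold) and 20 against 13.9 for Il1rl1 and Il1r2 (1.44-fold, 0.878 to 2.22), the last with an interval that includes 1. In CD8+ cells, where each was rare, Il1rl1 and Areg shared 11 cells against 1.96 (5.62-fold).

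CD4+ Tconv cells were next divided by their cytokine UMIs, into 111 cells with Il4, Il5 or Il13 but no Ifng, 318 with Ifng and none of these, 31 with both and 745 with neither. Areg was found in 42.3% of the type 2 cytokine cells (33.0 to 52.1), 5.03% of the Ifng cells (2.90 to 8.04) and 7.38% of the cells with neither (5.61 to 9.50). Il1r2 was found in 27.0% (19.0 to 36.3), 4.09% (2.19 to 6.89) and 5.64%. Il1rl1 was found in 25.2% (17.5 to 34.4), 7.23% (4.64 to 10.7) and 6.44%. Pooled, all 3 genes were thus highest in the type 2 cytokine cells, whose 111 cells included 59, 30 and 19 from libraries 4, 5 and 6. In these libraries Areg was found in 25, 15 and 7 of them, each above the cells with neither in the same library (9.09, 11.8 and 6.42%), and Il1r2 in 18, 9 and 3 (against 10.6, 9.03 and 8.26%). Il1rl1 differed, with 23 of 59 in library 4 (against 14.4%) but 3 of 30 in library 5 (against 11.8%) and 2 of 19 in library 6 (against 4.59%), so that its pooled excess came mainly from library 4. Il18r1 had the opposite order, with 13.5% of type 2 cytokine cells (7.77 to 21.3), 33.0% of Ifng cells (27.9 to 38.5) and 16.4% of cells with neither (13.8 to 19.2), and Ifng cells were above type 2 cytokine cells in each of libraries 4, 5 and 6 (46 of 100, 35 of 104 and 15 of 59 against 8 of 59, 2 of 30 and 4 of 19). The type 2 cytokine cells were deeper, at a median of 3343 UMIs against 2076.5 for the Ifng cells and 1284 for cells with neither. After thinning and pooled, the type 2 cytokine cells were still highest for Areg, Il1r2 and Il1rl1 and the Ifng cells for Il18r1, with Areg in 29.9, 1.82 and 7.04%, Il1rl1 in 13.1, 4.36 and 4.63%, Il1r2 in 12.1, 2.55 and 3.82% and Il18r1 in 5.61, 16.4 and 11.9% of the type 2 cytokine cells, the Ifng cells and the cells with neither. In the 31 cells with both, Il1r2 was found in 32.3% and Il18r1 in 29.0%, with wide intervals (16.7 to 51.4 and 14.2 to 48.0).

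The few CD8+ cells with a type 2 cytokine (54 cells, median depth 3933.5) also held these genes, with Il1rl1 in 22.2% (12.0 to 35.6), Areg in 24.1% (13.5 to 37.6) and Il1r2 in 11.1% (4.19 to 22.6), against 1.39, 0.95 and 0.41% of 2947 CD8+ cells with neither cytokine (median depth 1455). Thinned, Il1rl1 remained in 9.26% and Areg in 14.8% of the 54 cells. In libraries 4, 5 and 6, which held 22, 11 and 14 of these cells, Areg was found in 6, 2 and 5 and Il1rl1 in 6, 3 and 1, above the CD8+ cells with neither in each (at most 1.98% for Areg and 3.40% for Il1rl1). Among CD4+ Tconv cells with a UMI of Ccr8, a chemokine receptor of tumor Treg cells, Areg was found in 23.1% of 117 cells against 9.10% of the 1088 without (17.7 and 7.15% thinned). Il1r2 was found in 21.4 and 6.43%, and Il1rl1 in 19.7 and 7.54%, but thinned to equal depth these were 6.19 and 4.39% for Il1r2 and 6.19 and 5.40% for Il1rl1. The Ccr8 cells were deeper (median 3069 against 1515.5 UMIs), and at equal depth the distance was small for the 2 receptors and larger for Areg. In library 5, Areg was found in 4 of 28 Ccr8 cells and 13.6% of the others. Il18r1 was found in 19.7% of Ccr8 cells and 20.96% of the others.

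By the measure of co-detection, the genes whose pattern was most like each member were listed from all genes with at least 10 shared cells. For Areg these were Il13 (5.51-fold), Gm12214 (5.95), the chemokine Cxcl3 (5.72), Oaf (6.17) and Pparg (5.12-fold, 33 cells), a nuclear receptor known from tissue Treg and type 2 cells. For Il1rl1 they were Dgat2 (6.86-fold, 11 cells), Cyp11a1, a steroid-making enzyme (5.47-fold, 25 cells), Hdc, which makes histamine (5.20-fold, 45 cells), Foxp3 (5.51-fold) and Dach2 (6.11-fold). For Il1r2 they were Slc17a6 (8.77), Ctsh (7.76), Ccn4 (5.97), Cyp11a1 (5.95) and Penk, the enkephalin precursor (5.43-fold, 31 cells). The genes most like Il18r1 differed and stood closer to 1, from the IL-23 receptor gene Il23r (3.0-fold, 17 cells) through Lig4 (2.56), 5830411N06Rik (2.30) and Sdc1 (2.30) to Nr1d1 (2.24-fold, 37 cells).

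Over all cells, genes known from tissue Treg cells were found with 3 of the members. These counts were not repeated within gates. Between CD4+ Tconv and CD8+ cells, 7 of 20 tested genes of this list were at least 2-fold higher and 0 lower, beside 4.46% and 3.89% of all genes. How far the counts follow that difference was not tested. Between Foxp3+ and CD4+ Tconv cells, 11 of 19 tested genes, Foxp3 itself among them, were at least 2-fold higher and 0 lower. The shares of all genes were 6.35% and 8.1%. Penk was not among the 11, and Il10 and Pparg had too few UMIs to be tested. Of the 68 Il10, 95 Penk and 75 Pparg cells, 2, 8 and 2 were Foxp3+ cells. The counts below are thus of genes on the list, not of Treg cells. With Areg, 9 of 21 were in at least 2-fold more cells than matched (Foxp3, Il2ra, Tnfrsf4, Gata3, Klrg1, Ccr8, Il10, Penk and Pparg) and 0 in fewer, with a list median of 1.69 beside 1.06 over all genes, and 4.1% of all genes reached this size upward and 5.79% downward. With Il1rl1, 7 of 21 were higher and 0 lower (median 1.61 beside 1.05, with 3.85% of all genes higher and 5.95% lower), and with Il1r2, 6 of 21 were higher and 0 lower (1.65 beside 1.08, with 5.54% and 7.67%). Foxp3, already reported above as a partner, is among the higher genes for each of these 3 members. Il10, the suppressive cytokine, was shared with Il1rl1 in 28 of its 68 cells (4.90-fold), with Areg in 26 (4.31-fold) and with Il1r2 in 11 (2.91-fold). With Il18r1, 0 of 21 were higher and 1 lower (Il10, 0.46-fold), with a median of 1.04 beside 1.05, and 0.259% and 0.993% of all genes passed in either direction. Il10 thus lay on the side of the other 3 genes.

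Type 2 genes stood further from 1. With Areg, 6 of 8 tested were in at least 2-fold more cells (Il4, Il5, Il13, Gata3, Calca and the IL-25 receptor Il17rb, the last in 5 cells against 1.73) and 1, Hpgds, in fewer (0 cells against 2.01), with a median of 2.87 beside 1.06 over all genes. With Il1r2, 5 of 8 were higher (Il4, Il5, Il13, Calca and Csf2) and 0 lower, with a median of 2.54, and with Il1rl1, 4 of 8 (Il4, Il5, Il13 and Calca) and 0 lower, with a median of 2.39. Of all genes, 4.1% were higher and 5.79% lower with Areg, 5.54 and 7.67% with Il1r2, and 3.85 and 5.95% with Il1rl1. Il13 was already reported above as a partner. Il5 was found with Il1r2 5.07-fold, with Areg 5.0-fold and with Il1rl1 4.89-fold more often than matched, and with Il18r1 at 0.45. Of the type 2 genes 0 of 8 were higher and 1 (Il5) lower with Il18r1, with a median of 0.62, beside 0.259% and 0.993% of all genes. For type 1 genes the list median lay below 1 for 3 members, while single genes lay on either side, with 3 of 11 in at least 2-fold fewer cells with Areg (Il12rb2, Cxcr3 and Eomes; median 0.53), 2 of 11 with Il1rl1 (Ccl5 and Eomes; 0.65) and 1 of 11 with Il1r2 (Eomes; 0.73), beside 5.79, 5.95 and 7.67% of all genes, and 0 of 11 in more. With Il18r1, 0 of 11 passed either way and the median was 1.14. Il18rap, the partner chain of Il18r1, shared 390 cells with it (1.33-fold, 1.20 to 1.47) and 52 with Areg (0.63-fold). The lists overlap, Gata3 being in 2 of them. Like the tissue Treg counts, these were taken over all cells and not within gates. Between CD4+ Tconv and CD8+ cells, 6 of 6 tested type 2 genes were at least 2-fold higher. Of 11 type 1 genes, 4 were at least 2-fold lower and 0 higher. The shares of all genes were 4.46% higher and 3.89% lower. How far the counts follow these differences was not tested.

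Markers of other cell types were few in the cells with these genes. A T cell marker was found in 98.4% of Il1rl1, 99.7% of Il1r2, 98.6% of Il18r1 and 98.1% of Areg cells. A defining marker of myeloid, mast, stromal, B or melanoma cells was found in 4 (0.806%), 5 (1.61%), 53 (2.88%) and 15 (2.55%) of them, beside 201 of 12818 cells (1.57%). That count rests on the 9 of 17 defining markers in the table, so that it can miss such cells. The mast cell and basophil list, whose cells also carry ST2 and Hdc, was covered by Cpa3 alone, found in 2 cells, 1 of which held Il1rl1, and its other 5 markers were not analysed here. The part of mast cells or basophils in the Il1rl1 and Hdc result was not tested further. Melanoma markers were at 0 in Il1rl1, Il1r2 and Areg cells. Natural killer and innate lymphoid markers were found in 9.51% of Il18r1 cells, in 11.9% of CD8+ and in 1.24% of CD4+ Tconv cells. Without the cells that held a defining marker of another cell type, the CD4+ Tconv to CD8+ ratios were 5.26 for Il1rl1, 11.9 for Il1r2, 0.946 for Il18r1 and 8.95 for Areg.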

How the data were processed

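T cells from 6 samples were profiled with 10x Genomics 5′ chemistry by the authors, who combined the libraries with Cell Ranger and processed them in Seurat. The methods name mm10, whereas the submitters' processing notes list mm9, and no coordinate was taken from the counts. The deposited values are raw UMI counts per gene and cell, aggregated over libraries. The cells held 201 to 2494 genes each, and all were used. The table held 21816565 UMIs in 12818 cells, and the median cell 1250.5 UMIs from 583 genes. Summed libraries differed beyond sampling noise (smallest chi-square per degree of freedom 2.32). UMIs near the 5′ end do not separate soluble from membrane forms of a receptor.

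Labels gave 3 PBS and 3 DTx samples, but 0 of 6 libraries could be matched to one, so PBS and DTx were not compared and values are descriptions with no test. The 4 genes and all gene lists were chosen with earlier results of these data known. UMI ratios used genes with at least 20 UMIs in both gates together. Their interval is exact, conditional on the UMIs of both gates, in place of a planned Poisson interval that left out the counting error of the comparison gate. Co-detection was matched within library and 4 bins of depth, over genes found in at least 20 cells. Named genes were the 4 members, their partners, the lists, and for each member the 5 genes highest in co-detection on the log2 scale (0.5 added to both numbers) among those with at least 10 shared cells. Thinning drew 1000 UMIs per cell (seed 11). Where a gene was in 0 cells, the limit is 3 cells of the total. 1 marker planned for the naive-marker cells is not reported here and was left out of their definition. Scripts were tested on simulated data. Python 3.11.15, numpy 2.4.6, scipy 1.17.1, pandas 2.3.3 and matplotlib 3.10.9 were used.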

Additional observations from a re-analysis of the deposited data

Results flagged for a closer look

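Of the 6838 cells that held none of the gating genes and so entered no gate, 268 held Il1rl1 (3.92%, 3.47 to 4.41), 147 Il1r2 (2.15%, 1.82 to 2.52), 643 Il18r1 (9.40%, 8.72 to 10.1) and 342 Areg (5.0%, 4.50 to 5.55). They were set apart as signal in cells outside the comparisons, above the limit that a count of 0 allows. These cells were shallow, with a median of 956.5 UMIs. Pooled and from all UMIs, the shares of Il1rl1, Il1r2 and Areg lay between those of CD8+ and CD4+ Tconv cells, and Areg had 4.15 UMIs per positive cell. Thinned to 1000 UMIs and pooled, Il1rl1 was found in 3.82% of ungated and 5.49% of CD4+ Tconv cells. By library, the thinned ungated share was higher in libraries 1, 3 and 4 (1.69, 7.96 and 8.03% against 0, 2.50 and 7.82%). It was lower in libraries 2, 5 and 6 (0.284, 5.30 and 2.43% against 1.27, 6.14 and 6.06%). Il13 was found in 102 of the ungated cells (1.49%).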

How the results depend on the processing

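The 20 ratios were recomputed in 252 settings, of which 210 stayed within the main interval and 247 on the same side of 1. The other 5 were Il18r1 with Foxp3, at 0.865 without library 1, Il18r1 between CD4+ Tconv and CD8+ cells, at 1.06 without library 5, and Areg between Foxp3+ and CD4+ Tconv cells, at 0.845 after thinning, 0.986 when matched by depth too and 0.996 without library 3. The intervals of these 5 include 1. No paired analysis was possible because no library could be tied to a sample, and the planned PBS and DTx alternatives (replicate block, samples left out) were not run. Alternatives that count each cell once or leave out shared barcodes were chosen after seeing the data. The cause of the changes below was not tested.

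With cells of other gating markers kept, the CD4+ Tconv to CD8+ ratios were 4.20 for Il1rl1, 8.96 for Il1r2 and 4.98 for Areg. Counting each cell once gave 8.90 for Il1r2, 7.50 for Areg and, between Foxp3+ and CD4+ Tconv cells, 2.82 for Areg, which was 0.845 after thinning. With Foxp3, matching by library alone gave 9.38 for Il1rl1, 11.4 for Il1r2, 2.67 for Il18r1 and 8.04 for Areg, CD4+ Tconv and Foxp3+ cells alone gave 2.99 for Il1rl1, 1.97 for Il1r2 and 1.85 for Areg, thinning gave 9.15 for Il1rl1 and 16.4 for Il1r2, and at least 2 Foxp3 UMIs gave 14.4 for Il1rl1, 3.09 for Il18r1 and 7.0 for Areg. With Il13, matching by library alone gave 6.39 for Il1r2, CD4+ Tconv and Foxp3+ cells alone gave 1.72, 2.08 and 2.50 for Il1rl1, Il1r2 and Areg, and thinning gave 4.34, 7.10, 0.210 and 8.33 for Il1rl1, Il1r2, Il18r1 and Areg. With Ifng, thinning gave 0.470 for Il1rl1 and 0.403 for Areg, matching by library alone 1.26 for Il18r1, and at least 2 Ifng UMIs 0.415 for Areg.

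Leaving out each library in turn gave CD4+ Tconv to CD8+ ratios of 3.65 to 5.92 for Il1rl1, 7.24 to 20.4 for Il1r2, 0.901 to 1.06 for Il18r1 and 7.41 to 11.4 for Areg, and Foxp3+ to CD4+ Tconv ratios of 10.0 to 14.5, 1.91 to 5.51, 1.52 to 1.62 and 0.996 to 2.99 in that order. Co-detection ran from 4.82 to 6.59, 4.79 to 6.06, 0.865 to 1.77 and 4.05 to 6.38 with Foxp3, 2.46 to 3.54, 3.45 to 4.48, 0.472 to 0.620 and 4.89 to 7.19 with Il13, and 0.608 to 0.783, 0.617 to 0.899, 1.15 to 1.17 and 0.468 to 0.598 with Ifng. Of 108 shares under other settings, 34 moved outside their interval.

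Requiring at least 50 UMIs or cells per gene in place of 20 changed the genes at least 2-fold higher and lower from 463 and 404 to 275 and 229 between CD4+ Tconv and CD8+ cells and from 330 and 421 to 88 and 80 between Foxp3+ and CD4+ Tconv cells. Genes with more cells than matched went from 1779 to 1356 with Foxp3 and from 763 to 454 with Il13, and those with fewer from 94 to 30 with Ifng. Genes with more and with fewer cells went from 431 and 665 to 228 and 346 with Il1rl1, from 619 and 858 to 324 and 477 with Il1r2, from 29 and 111 to 4 and 20 with Il18r1 and from 459 and 647 to 241 and 351 with Areg.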

Other observations

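Hdc, which encodes the enzyme that makes histamine, was found in 109 cells, of which 45 held Il1rl1, and Cyp11a1, which encodes the first enzyme of steroid synthesis, in 41 cells, of which 25 held Il1rl1 and 18 held Il1r2. Pparg was found in 75 cells, of which 33 held Areg. Among the 10 Foxp3+ cells with Mki67 or Top2a, Il18r1 and Areg were each found in 6, but these cells were deeper, and thinned to 1000 UMIs Il18r1 was in 0 of 9 (which allows up to 33.3%) and Areg in 3 of 9. Among the 16 Foxp3+ cells with Ifng, Areg was found in 7 (43.8%, 19.8 to 70.1) against 19 of 81 without (23.5%, 14.7 to 34.2), and these intervals overlap. Thinned, these were 3 of 14 (21.4%) and 11 of 62 (17.7%).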
